A study of Homo sapiens with 4 samples.

Results

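Heat shock protein genes were examined in AGS cells, a human gastric adenocarcinoma line, after knockdown of MFAP2, an extracellular matrix protein of microfibrils. The 10 genes were picked by symbol from the 47251 genes in the table. The rule itself uses no measured value, but the members were chosen with earlier results of these data known. HSPA1A and HSPA1B are intronless, and the other 8 (HSPA8, HSPH1, DNAJB1, HSP90AA1, HSP90AB1, HSPB1, HSPD1 and HSPE1) are spliced. Each symbol was found in 1 row, and all 10 passed the filter of a mean of at least 1 FPKM, which 9873 genes passed. FPKM is fragments normalised to gene length and to the size of the library, a unit read from the values.

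The study sequenced RNA from 2 sh-MFAP2 libraries and 2 control libraries. The sh-MFAP2 cells carried 1 short hairpin RNA against MFAP2 and the control cells a scrambled hairpin, both delivered by lentivirus. Both groups were grown in DMEM with serum, and by the study's methods both had been kept in puromycin for 4 weeks, so that each group is a selected line under a single hairpin. Nothing in the labels says that replicates came from separate cultures, so p-values measure only the spread between these libraries, which may be technical.

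The heat shock system keeps proteins folded. HSP70 proteins bind exposed stretches of unfolded proteins and release them in a cycle driven by ATP, with J-domain proteins such as DNAJB1 delivering the clients and HSP110 proteins such as HSPH1 exchanging the nucleotide. HSP90 proteins take over clients that are close to their native state, many of them kinases and receptors. The small heat shock protein HSPB1 holds unfolding proteins in soluble assemblies, and HSPD1 with its lid HSPE1 folds proteins inside mitochondria. Heat shock factor 1, encoded by HSF1, drives the inducible genes of the system through heat shock elements, repeats of nGAAn in alternating orientation. Intronless genes such as HSPA1A and HSPA1B can give mature mRNA when stress blocks splicing, whereas HSPA8 is a constitutively expressed member of the same family.

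These elements were looked for in the promoters of the members, because they are the sequence that heat shock factors bind. The search covered windows from 250 bases before to 50 bases after each RefSeq start (GRCh38.p14). The motif GAANNTTC or TTCNNGAA, read on both strands, occurred in 8 of 10 members and 9 of their 16 windows, against 13.5% of 35116 windows of all genes. The longer form with 3 units, GAANNTTCNNGAA or TTCNNGAANNTTC, which contains the shorter one, was found in 4 of the 16 member windows, 1 in each of 4 members, against 0.49% of all windows. HSPE1 and HSPH1 held no match in their windows. One match for each of the 8 genes is printed 5′ to 3′ on the gene's strand, with the motif in capitals.
HSPA1A: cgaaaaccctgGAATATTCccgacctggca
HSPA1B: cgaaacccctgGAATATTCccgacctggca
HSPA8: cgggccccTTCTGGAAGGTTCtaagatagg
HSP90AA1: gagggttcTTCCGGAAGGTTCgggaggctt
HSP90AB1: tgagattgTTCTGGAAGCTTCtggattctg
DNAJB1: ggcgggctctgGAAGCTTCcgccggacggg
HSPB1: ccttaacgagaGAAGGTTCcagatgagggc
HSPD1: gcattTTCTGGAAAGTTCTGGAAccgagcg

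The HSPA1A stretch was chr6:31815426-31815455 and the HSPA1B stretch chr6:31827622-31827651, both on the plus strand. Between them a single substitution, A6C, was found, counted from 1 at the first printed base with the HSPA1A base first. The HSPA8 stretch was chr11:123062170-123062199, the HSP90AA1 stretch chr14:102087111-102087140 and the DNAJB1 stretch chr19:14518426-14518455, all on the minus strand. The HSP90AB1 stretch was chr6:44247823-44247852 and the HSPB1 stretch chr7:76302480-76302509, both on the plus strand. In HSPD1, at chr2:197500061-197500090 on the minus strand, alternating units ran on for 18 letters. This HSPD1 stretch lay outside the HSPE1 window, which began at chr2:197500129, but inside the annotated span of HSPE1 (197499994 to 197503457). A match describes the letters in a window and was not tested as a binding site.

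The libraries had summed FPKM values of 184902 to 199814, and the step between low values implied roughly 54600000 to 75000000 reads per library. This is an estimate, since only 57.7% to 59.1% of low values lay on a whole step and reads per gene were not recovered. By it the fewest reads behind any member value, about 1620, stood behind HSPB1 in sh-MFAP2 replicate 2, through its short gene length of 1060 bases. All 6 epithelial markers (EPCAM, KRT8, KRT18, KRT19, CLDN4, CLDN7) reached 1 FPKM in at least 1 library. Their summed levels were 1920 to 2010 FPKM in the sh-MFAP2 group and 1780 to 2010 in the control group. CLDN4 reached it in sh-MFAP2 replicate 1 alone, at 47.1 FPKM against 0.0151 to 0.551 elsewhere. CLDN7 measured 26.0 and 34.2 FPKM under MFAP2 knockdown, against 46.1 and 48.2 FPKM in control cells. EPCAM and the keratins overlapped between the groups. None of 3 endothelial markers reached 1 FPKM. Of 3 fibroblast markers only COL1A1 did (2.07 to 2.27 FPKM in sh-MFAP2, 4.36 to 4.92 in control), and of 3 leukocyte markers only LYZ did (summed levels of 85.6 to 579 and 89.3 to 369 FPKM), while PTPRC and CD3E were near 0. MFAP2 itself was listed at 0 under knockdown, against 0.0116 and 0.0138 FPKM in control cells, too low to check the labels.

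The comparison of sh-MFAP2 with control cells asked whether MFAP2 knockdown changed the expression of heat shock protein genes. The cytosolic HSP90 genes HSP90AA1 and HSP90AB1, the HSP110 gene HSPH1 and the small heat shock gene HSPB1 had lower values in both sh-MFAP2 libraries than in both controls. HSPA8, the constitutive HSP70, had higher values in both. The intronless HSPA1A and HSPA1B, the J-domain gene DNAJB1 and the mitochondrial pair HSPD1 and HSPE1 had overlapping groups. None of these differences passed the test across all genes. In bulk RNA, fewer cells expressing a gene and less RNA per cell cannot be told apart.

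A differentially expressed gene (DEG) was called at p under 0.01 and adjusted p under 0.05, by limma with Benjamini-Hochberg adjustment over the 9873 genes tested. By this rule 0 of 10 members were DEGs, where 0.273% of all genes tested were (27 genes). At an unadjusted p under 0.05, 2 members were counted, both lower, where 12.3% of all genes were counted in either direction. Of those genes 830 were lower and 384 higher. The 4 members lower in both sh-MFAP2 libraries stood against 31.4% of all genes, and the 1 higher in both against 17.5%. The median log2 fold change was -0.11 for the members and -0.05 for all genes tested. With 2 libraries against 2, an exact two-sided permutation test of a single gene cannot go below 0.333.

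**Figure D1:**
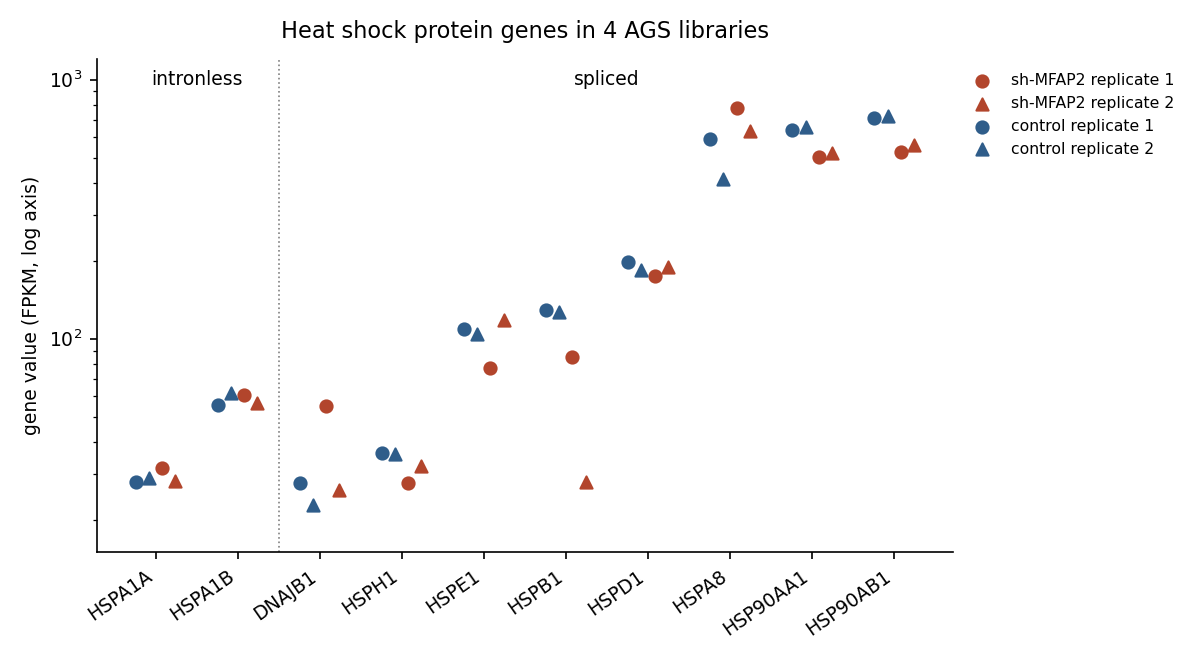
Gene values of the 10 heat shock protein genes in FPKM on a log axis, 1 point per library, with sh-MFAP2 in red, control in blue, replicate 1 as circles and replicate 2 as triangles. The 4 points of HSPA1A (27.9 to 31.7) and of HSPA1B (55.3 to 61.8) lie close together, and HSPB1 runs from 28.0 to 129.

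The intronless HSP70 genes lie side by side on chromosome 6, HSPA1A at 31815464 to 31817946 and HSPA1B at 31827735 to 31830255, both on the plus strand (hg38, GENCODE 29). They encode the inducible cytosolic HSP70 and are the classical targets of heat shock factor 1. HSPA1A measured 31.7 and 28.3 FPKM under MFAP2 knockdown, against 27.9 and 28.9 FPKM in control cells. HSPA1B measured 60.9 and 56.3 FPKM under MFAP2 knockdown, against 55.3 and 61.8 FPKM in control cells. For both genes the 4 libraries overlapped, with the highest value 1.14 times the lowest for HSPA1A and 1.12 times for HSPA1B.

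The fitted log2 fold change was 0.07 (SE 0.115) for HSPA1A and 0.0018 (SE 0.122) for HSPA1B, with limma adjusted p of 0.793 and 0.996. The 95% interval ran from -0.25 to 0.40 for HSPA1A and from -0.35 to 0.35 for HSPA1B, on the log2(FPKM + 1) scale on which all fold changes here are given. Changes within these bounds are compatible with the values, and the bounds are not a limit of detection. The ratio of HSPA1B to HSPA1A was 1.92 and 1.99 under MFAP2 knockdown, against 1.98 and 2.14 in control cells.

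HSPA1A and HSPA1B can hardly be separated by short reads. Their coding sequences are 1923 bases each and differ at 4 positions (99.79% identity). Of all stretches of 100 bases in the main transcript, 69.9% for HSPA1A and 72.7% for HSPA1B occurred in another gene, mostly in each other. How shared reads were divided is not given in the sources used here, so that each separate value is uncertain. Their sum was 92.5 and 84.6 FPKM under MFAP2 knockdown, against 83.2 and 90.7 FPKM in control cells, and the groups overlapped (log2 fold change 0.03, SE 0.119, limma adjusted p = 0.935). Among other HSP70 relatives, HSPA6, a strictly inducible intronless gene, was listed at 0 in all 4 libraries. HSPA1L measured 0.306 to 0.596 FPKM and HSPA2 0 to 0.352 FPKM. Not all relatives were scarce, with HSPA5 at 282 to 363 FPKM and HSPA9 at 113 to 132 FPKM.

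Single-exon genes varied more over these libraries than multi-exon genes. Of 137 single-exon genes tested, 64 (46.7%) fell below 10% of their own highest value in at least 1 library while reaching 5 FPKM in another. Among 9720 multi-exon genes, 138 (1.42%) did. The single-exon genes held 11 DEGs (8.03%) and the multi-exon genes 16 (0.165%), and the median size of the log2 fold change was 0.56 against 0.19.

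The intronless heat shock genes did not behave in this way. The lowest library of HSPA1A stood at 88.1% of the highest and that of HSPA1B at 89.6%, with the spliced HSPD1 at 88.6%. Of the 137 single-exon genes, 4 (2.92%) had a ratio of highest to lowest at or below that of HSPA1B. At or below that of HSPA1A were 5 (3.65%), and HSPA1B itself is counted in both. Over all genes tested the shares were 5.34% and 7.54%. By the largest exon number of any annotated transcript HSPA1B counted as single-exon, and HSPA1A as multi-exon through a minor spliced transcript. The intronless transcript held 99.2% or more of the HSPA1A value in every library.

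**Figure D2:**
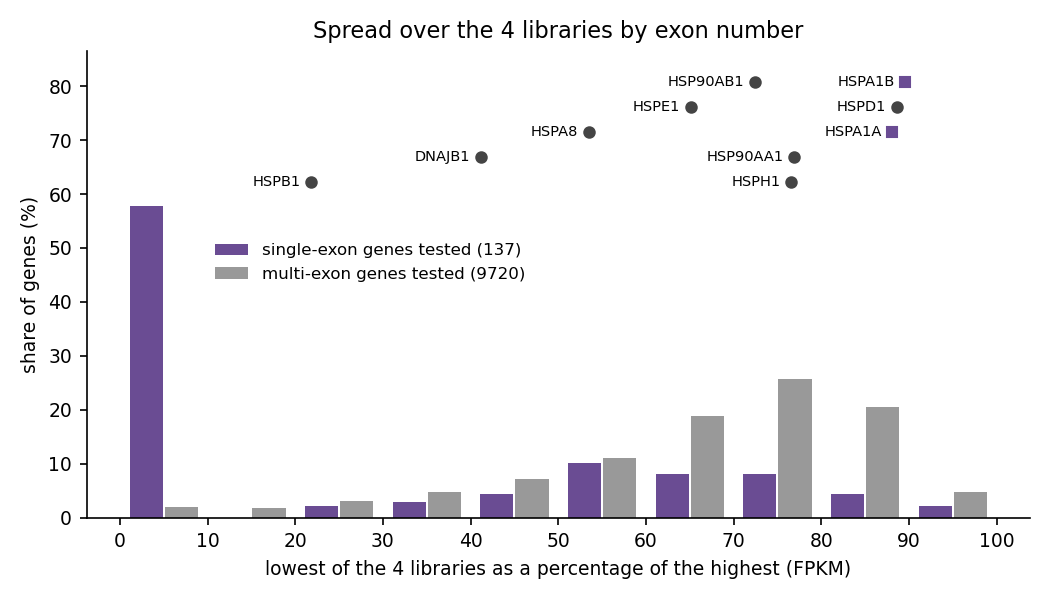
Share of genes (bars, %) by the lowest of the 4 libraries as a percentage of the highest, for 137 single-exon (purple) and 9720 multi-exon (grey) genes tested, with the 10 heat shock protein genes marked above the bars at heights that carry no value (squares intronless, circles spliced). In the lowest bin lie 57.7% of single-exon and 2.04% of multi-exon genes, whereas HSPA1A is at 88.1% and HSPA1B at 89.6%.

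HSPA8 encodes the constitutive cytosolic HSP70, HSC70, and lies at chr11:123057489-123063230 on the minus strand. It measured 775 and 632 FPKM under MFAP2 knockdown, against 589 and 414 FPKM in control cells. Each knockdown library exceeded each control, but the controls themselves lay 0.51 apart on the log2 scale. The mean was 704 ± 101 FPKM against 501 ± 123 FPKM (SD, n = 2 each), a ratio of 1.40. The log2 fold change was 0.50 (SE 0.237, 95% interval -0.17 to 1.18), with a limma adjusted p of 0.462.

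The HSPA8 value rested on different transcripts in control replicate 2 than in the other libraries. The transcript ENST00000534624 (9 exons, 2463 bases) held 96.8%, 96.6% and 95.3% of the summed transcript value in the 2 sh-MFAP2 libraries and control replicate 1. In control replicate 2 it held 6.79%, while the shorter ENST00000227378 held 41.1% and ENST00000526110 held 13.8%. In FPKM, ENST00000534624 measured 1494, 1219 and 1124 in the first 3 libraries and 70.0 in control replicate 2, where ENST00000227378 measured 424. Another leading transcript in control replicate 2 alone was found in 3.68% of 9251 genes, and in 77.9% of them the leading transcript was the same in all 4 libraries.

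A gene's FPKM here equalled the reads of all its transcripts over 1 fixed gene length, 4849 bases for HSPA8. The sum of the transcripts' own FPKM values was 1544 and 1262 under MFAP2 knockdown, against 1179 and 1031 in control cells. On this scale too HSPA8 was higher in both sh-MFAP2 libraries, and the log2 fold change was 0.34. Without control replicate 2 the log2 fold change of the gene value was 0.25, and without control replicate 1 it was 0.76. The part of transcript assignment in the difference was not tested.

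**Figure D3:**
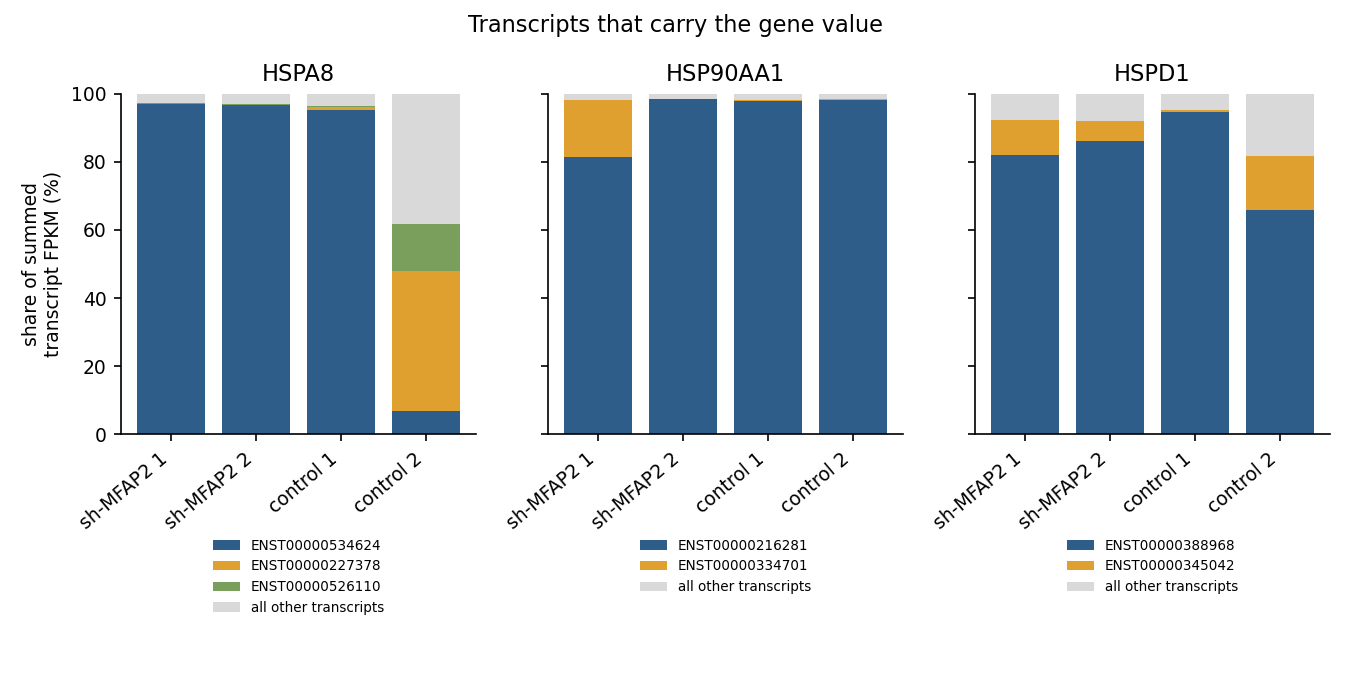
Share of the summed transcript FPKM (%) held by the transcripts with at least 10% in some library, for HSPA8, HSP90AA1 and HSPD1, 1 stacked bar per library and all other transcripts in grey. The leading HSPA8 transcript falls from 95.3% or more to 6.79% in control replicate 2, and a second HSP90AA1 transcript reaches 16.6% in sh-MFAP2 replicate 1.

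The partners of HSP70 among the members were DNAJB1 and HSPH1, and neither passed the test. DNAJB1, an inducible J-domain protein and a target of heat shock factor 1, lies at chr19:14514770-14529770 on the minus strand. It measured 55.1 and 26.0 FPKM under MFAP2 knockdown, against 27.9 and 22.7 FPKM in control cells. Only sh-MFAP2 replicate 1 was high, and the other sh-MFAP2 library lay between the controls. The log2 fold change was 0.57 (SE 0.410, limma adjusted p = 0.580), and without sh-MFAP2 replicate 1 it was 0.05. In each library 96.3% or more of its value came from ENST00000254322, so the high library showed no change of transcript.

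HSPH1, the HSP110 exchange factor, lies at chr13:31134974-31162388 on the minus strand. It measured 27.7 and 32.2 FPKM under MFAP2 knockdown, against 36.2 and 36.0 FPKM in control cells. Both sh-MFAP2 values were lower, with a log2 fold change of -0.26 (SE 0.126, 95% interval -0.62 to 0.09, limma adjusted p = 0.465). The ratio of HSPA8 to DNAJB1 was 14.1 and 24.3 under MFAP2 knockdown, against 21.1 and 18.2 in control cells, so that the groups overlapped. The ratio of HSPA8 to HSPH1 was 28.0 and 19.6 against 16.3 and 11.5, and the groups did not overlap.

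The cytosolic HSP90 genes gave the most even difference between the groups. HSP90AA1, the inducible form, lies at chr14:102080738-102139699 on the minus strand, and measured 505 and 521 FPKM under MFAP2 knockdown, against 637 and 656 FPKM in control cells. HSP90AB1, the constitutive form, lies at chr6:44246166-44253888 on the plus strand, and measured 525 and 560 FPKM under MFAP2 knockdown, against 709 and 724 FPKM in control cells. For both genes the replicates lay close together and the groups did not overlap.

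HSP90AA1 had a mean of 513 ± 11.4 FPKM in the sh-MFAP2 group and 646 ± 13.2 FPKM in the control group (SD, n = 2 each), a ratio of 0.793. HSP90AB1 had 542 ± 25.2 FPKM against 717 ± 10.9 FPKM, a ratio of 0.757. The log2 fold change was -0.33 (SE 0.106, 95% interval -0.63 to -0.03) for HSP90AA1 and -0.40 (SE 0.110, 95% interval -0.71 to -0.09) for HSP90AB1. The limma p was 0.0371 and 0.0237 before adjustment and 0.394 and 0.375 after it. These were the 2 members counted at an unadjusted p under 0.05, and neither was counted without a filter or with a replicate block. The ratio of HSP90AB1 to HSP90AA1 stayed between 1.04 and 1.11 over the 4 libraries.

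The transcripts of HSP90AA1 were not the same in all libraries. ENST00000216281 (11 exons) held 98.3%, 97.8% and 98.1% of the summed value in sh-MFAP2 replicate 2 and the controls, and 81.4% in sh-MFAP2 replicate 1. There ENST00000334701, with 12 exons, measured 122 FPKM (16.6%), against 0.709, 1.99 and 2.34 FPKM in the other libraries. The summed transcript values were 736 and 762 FPKM under MFAP2 knockdown, against 936 and 960 FPKM in control cells, and also did not overlap. HSP90AB1 came almost wholly from ENST00000371646, with 96.3% to 99.8% of its value.

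HSPB1, the small heat shock protein HSP27, lies at chr7:76302544-76304295 on the plus strand. It measured 85.3 and 28.0 FPKM under MFAP2 knockdown, against 129 and 127 FPKM in control cells. Each knockdown library was lower than each control, but the sh-MFAP2 replicates lay farther apart (1.57 on the log2 scale) than the means of the groups did (log2 fold change -1.36). The mean was 56.7 ± 40.5 FPKM against 128 ± 1.57 FPKM (SD, n = 2 each), a ratio of 0.444. Its SE was 0.581 and its 95% interval -3.01 to 0.29, and it was the largest in size among the members, with a limma adjusted p of 0.436. It was -0.58 without sh-MFAP2 replicate 2 and -2.15 without sh-MFAP2 replicate 1. The transcript ENST00000248553 held 93.6% to 99.9% of the value in every library.

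**Figure D4:**
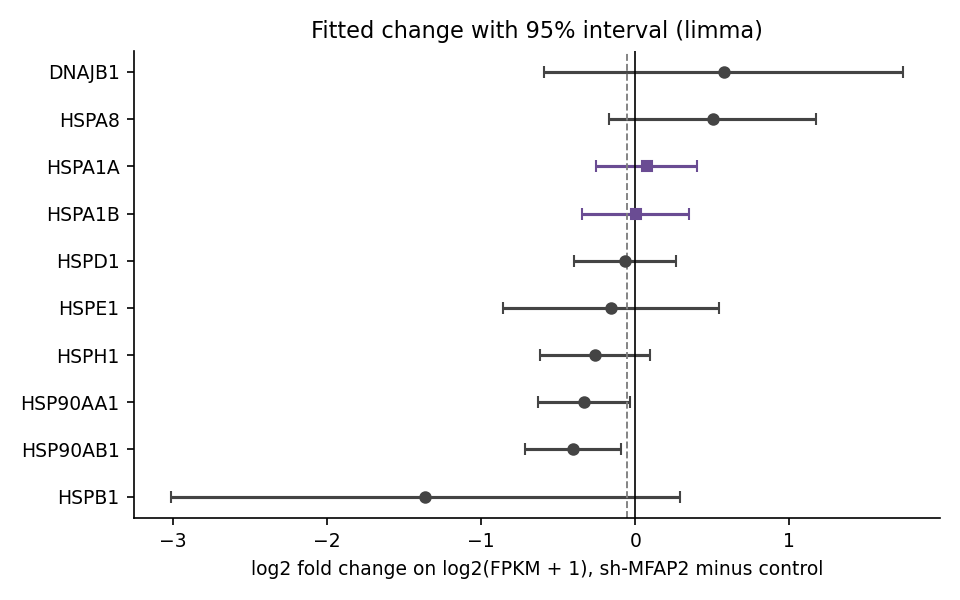
Log2 fold change of sh-MFAP2 against control on the log2(FPKM + 1) scale with the 95% interval of the limma fit, for the 10 heat shock protein genes (purple squares intronless, dark circles spliced), with the median of all genes tested as a dashed line at -0.05. Only the intervals of HSP90AA1 and HSP90AB1 lie wholly on 1 side of 0, and that of HSPB1 is the widest.

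The mitochondrial chaperonin pair overlapped between the groups. HSPD1 (HSP60) lies at chr2:197486581-197516737 on the minus strand and HSPE1 (HSP10) at chr2:197499994-197503457 on the plus strand. HSPD1 measured 175 and 189 FPKM under MFAP2 knockdown, against 197 and 184 FPKM in control cells. HSPE1 measured 76.9 and 118 FPKM under MFAP2 knockdown, against 109 and 104 FPKM in control cells. The sh-MFAP2 replicates of HSPE1 lay on either side of the controls, while the 4 values of HSPD1 were within 1.13 times of each other.

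The log2 fold change was -0.07 (SE 0.116) for HSPD1 and -0.16 (SE 0.246) for HSPE1, with limma adjusted p of 0.813 and 0.791. The ratio of HSPD1 to HSPE1 was 2.27 in sh-MFAP2 replicate 1 and 1.60, 1.81 and 1.76 in the others. The annotated spans of the genes overlap on opposite strands, and the strandedness of the libraries is not given in the sources used here, so that reads from the overlap could not be told apart. HSPE1 also shares sequence with the readthrough gene HSPE1-MOB4, which measured 3.85 to 6.91 FPKM, and 17.0% of its 100-base stretches occurred in other genes.

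The transcript shares of HSPD1 varied within the control group. ENST00000388968 held 81.9% and 86.2% of the summed value in the sh-MFAP2 libraries and 94.6% and 65.7% in the controls. ENST00000345042 held 10.2% and 5.83% in the sh-MFAP2 libraries and 0.672% and 15.9% in the controls. The controls thus marked the extremes for both transcripts. For HSPE1, ENST00000233893 held 85.0% to 90.4%, and the shorter ENST00000409468 11.8% and 8.14% in the sh-MFAP2 libraries against 7.26% and 6.44% in the controls.

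The order of the levels put HSP90AB1 first in the controls by gene FPKM, at 717 ± 10.9, with HSP90AA1 at 646 ± 13.2 and HSPA8 at 501 ± 123. HSPD1 (191 ± 9.15), HSPB1 (128 ± 1.57) and HSPE1 (107 ± 3.06) came next. HSPA1B (58.5 ± 4.55), HSPH1 (36.1 ± 0.115), HSPA1A (28.4 ± 0.700) and DNAJB1 (25.3 ± 3.62) were the lowest. By gene FPKM the control values of HSPA1A and DNAJB1 almost touched. In the sh-MFAP2 group HSPA8 was first, at 704 ± 101, before HSP90AB1 (542 ± 25.2) and HSP90AA1 (513 ± 11.4). The order depends on the measure. By summed transcript FPKM HSPA8 was above HSP90AA1 and HSP90AB1 in all 4 libraries. On that scale DNAJB1 measured 45.94 and 37.65 in the controls, above HSPA1A at 27.95 and 28.92. HSPH1 measured 62.6 and 62.5 there, above HSPA1B at 55.3 and 61.8. The fixed length behind the gene FPKM was 3672 bases for DNAJB1 and 2483 for HSPA1A. The 10 members together held 1.25% and 1.10% of the summed FPKM of all genes in the sh-MFAP2 libraries and 1.28% and 1.26% in the controls.

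The intronless and spliced genes were then set against each other. In each library the mean log2(FPKM + 1) of HSPA1A and HSPA1B minus that of the 8 spliced genes was taken. It was -1.82 and -1.72 in the sh-MFAP2 libraries and -2.10 and -1.89 in the controls. The mean of the intronless genes lay below that of the spliced genes throughout. This did not hold gene by gene, since HSPA1B exceeded DNAJB1 and HSPH1 in every library by gene FPKM. The gap between the means was smaller in both sh-MFAP2 libraries. The difference between the groups was 0.23 against a pooled SD of 0.118 between replicates, with 0.04 from the intronless and -0.19 from the spliced mean. By summed transcript values the difference between the groups was 0.25. Without control replicate 1 it was 0.12 and without control replicate 2 it was 0.33 by gene values. No test was made of this score with 2 libraries per group. With HSPB1 left out of the spliced mean, a choice made after its values were seen, the score was -1.94 and -2.04 under MFAP2 knockdown, against -2.16 and -1.93 in control cells. The groups then overlapped, and the difference between them was 0.06 with a pooled SD of 0.123.

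Other chaperones and their regulators were described by lists of 93 genes, of which 92 were in the table and 74 were tested. None of the 74 was a DEG by limma, and 3 had an unadjusted p under 0.05, all lower (CCT6A, DNAJC10 and ST13), where 12.3% of all genes had such a p in either direction. Each knockdown library lay under each control for 24 (32.4%) and over each control for 14 (18.9%), close to the 31.4% and 17.5% of all genes. The median log2 fold change was -0.03, near that of all genes. The regulator HSF1 measured 7.86 and 7.95 FPKM under MFAP2 knockdown, against 7.25 and 6.81 FPKM in control cells, a log2 fold change of 0.15 (SE 0.101, limma adjusted p = 0.564). HSF2 measured 5.54 and 8.98 FPKM against 6.87 and 9.99 FPKM, and overlapped.

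The cytosolic chaperonin TRiC, which folds actin and tubulin, had 8 subunits tested. CCT6A measured 101 and 99.3 FPKM under MFAP2 knockdown, against 138 and 140 FPKM in control cells, a log2 fold change of -0.47 (SE 0.102) with the lowest adjusted p of the network, 0.337 by limma. The other TRiC subunits ran from -0.27 (CCT4) to 0.13 (CCT5), and 3 of 8 (37.5%) were below both controls and 2 (25.0%) above, against 31.4% and 17.5% of all genes. The 15 J-domain genes tested had a median of -0.11, from DNAJC10 at -0.37 (SE 0.0991, unadjusted limma p under 0.05) to DNAJC2 at 0.23. Of 7 other HSP70 and HSP110 genes tested, HSPA13 was lowest at -0.42, while HSPA5, the chaperone of the endoplasmic reticulum, was at 0.12 and HSPA9 of mitochondria at 0.01.

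The exchange factors and cofactors of HSP70 spread more widely, from GRPEL2 at -1.06 to GRPEL1 at 0.61. In both genes, which serve mitochondrial HSP70, sh-MFAP2 replicate 1 stood apart, with GRPEL2 at 0.987 FPKM against 7.20 to 7.72 in the other libraries and GRPEL1 at 17.7 FPKM against 7.41 to 8.36. ST13, a cochaperone of HSP70, measured 43.0 and 49.0 FPKM against 58.7 and 61.1 FPKM (log2 fold change -0.38, SE 0.122). BAG4 was lower in both sh-MFAP2 libraries, at 3.87 and 1.77 FPKM against 5.65 and 5.34 FPKM (log2 fold change -0.82, SE 0.313, limma adjusted p = 0.415). Among 14 HSP90 cochaperones the median was 0.00134, with CDC37, which brings kinases to HSP90, at 75.6 and 64.3 FPKM against 52.4 and 55.8 FPKM (0.36, SE 0.135). CDC37 was thus above both controls where HSP90AA1 and HSP90AB1 were below them. Of 2 other HSP90 genes, TRAP1 was at 0.11 and HSP90B1 at -0.01. Of 9 other small heat shock genes 2 were tested, HSPB8 at 0.70 (12.4 and 10.5 FPKM against 5.001 and 8.67) and HSPB11 at -0.36. Among 8 other stress chaperones tested, SERPINH1, the collagen chaperone, was lowest at -0.42 and TOR1A highest at 0.47 (SE 0.487). The TOR1A value came from sh-MFAP2 replicate 2, with 17.0 FPKM against 6.28 to 7.54 FPKM in the other libraries.

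**Figure D5:**
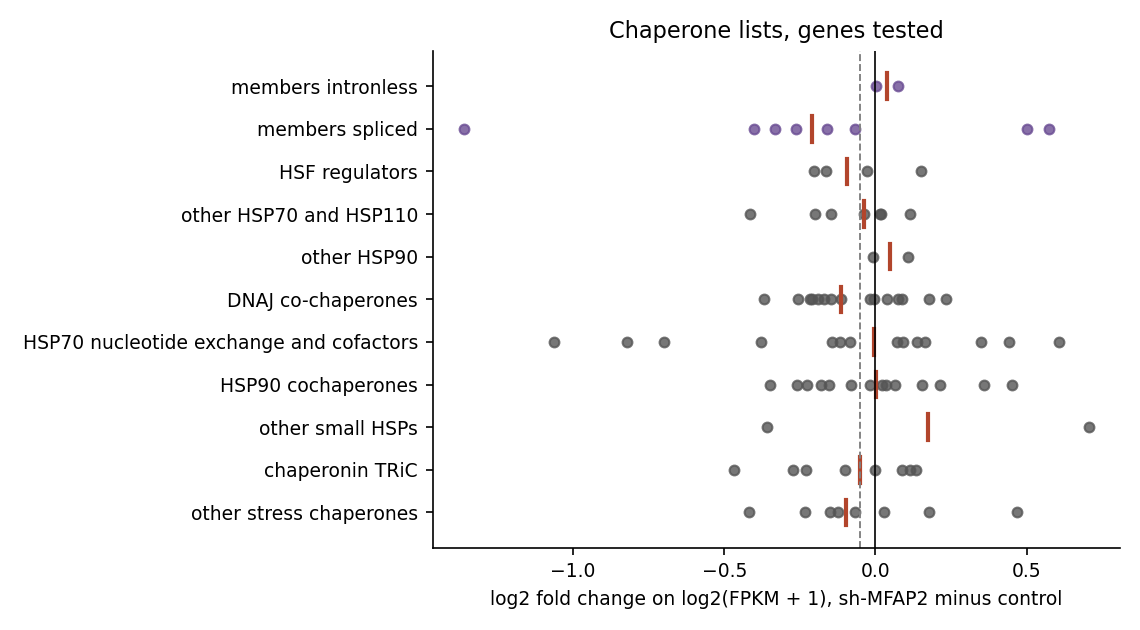
Log2 fold change of sh-MFAP2 against control on the log2(FPKM + 1) scale for each gene tested in 11 lists, the intronless and spliced members in purple and 9 lists of other chaperones and regulators in grey, with the list's median as a red bar and the median of all genes as a dashed line. The medians lie between -0.21 (spliced members) and 0.17 (other small HSPs, 2 genes), and no gene shown was a DEG.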

How the data were processed

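RNA of 2 sh-MFAP2 and 2 control AGS libraries was sequenced by the authors, who deposited values per gene and per transcript. The deposited values were taken as FPKM from their pattern, since no header names a unit. They lay on the hg38 build by the submitters' processing notes, and the aligner, quantifier and annotation are not given in the sources used here. Only 57.7% to 59.1% of low values lay within 0.05 of a whole step (chance gives 10%), so reads were not recovered and no count test was run. No interval can be given for single FPKM values.

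The members and gene lists were chosen with earlier results of these data known. Values were tested as log2(FPKM + 1) with limma 3.58.1 (eBayes with a variance trend, R 4.3.3) over genes averaging 1 FPKM or more, following the log2 scale and thresholds of the study's methods. On simulated data, a log2 change of 2 was called in 130 of 200 genes, with 1 false call, among 9873 genes. The largest fitted change of a member was smaller in size (HSPB1, -1.36), and changes of the members' size were not simulated. Besides the members, the text names DEGs and the 3 genes with the highest and lowest log2 fold change of each list, or some of these, and HSF1 and HSF2. HSPA6, HSPA1L and HSPA2 were added as relatives, and ST13 for its unadjusted p. Transcripts with at least 10% of a member's value in some library are described. Exons and positions came from GENCODE 29 and promoters from RefSeq (GRCh38.p14). Sequence and table work used Python 3.11.15 with pandas 2.3.3, and plots matplotlib 3.10.9.

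Over all genes tested together, the deviations of same-numbered replicates were hardly correlated, so the replicate number was no block in the main test. Alternatives were another filter, pseudocount, scaling, variance model, summed transcripts, a replicate block and leaving out each library. Leaving HSPB1 out of the spliced mean was added after its values were seen.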

Additional observations from a re-analysis of the deposited data

How the results depend on the processing

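No member was a DEG in the settings fitted with 2 libraries per group. These were no filter, a stricter filter at 5 FPKM, 0.1 as the pseudocount, quantile or median-of-ratios scaling, no variance trend and a replicate block. Under the replicate block 0 of 9873 genes were DEGs, so its 0 members carry no information about the members. Without a filter 6 of 23806 genes were DEGs. At an unadjusted p under 0.05 alone the count was 2. That count was 0 without a filter and 1 under median-of-ratios scaling. It was 2 under the stricter filter, the other pseudocount, quantile scaling and no variance trend. With a library left out, the lone library of a group is assumed to vary like the other group. Counts at an unadjusted p under 0.05 from those fits moved both up and down, and only fold changes are given for them. For the chaperone network the count was 3 in the main fit, where 12.3% of all genes had such a p. The share over all genes was not computed for the other settings. The replicate block gave 0 members past the threshold and 0 at an unadjusted p under 0.05. The deviations of same-numbered libraries from their group means had a correlation of -0.0572 over 9873 genes. This value describes all genes together and not single genes. LYZ measured 85.5 FPKM (sh-MFAP2) and 89.3 FPKM (control) in replicate 1, against 579 and 369 FPKM in replicate 2. IER3 measured 85.4 and 72.5 FPKM in replicate 1, against 4.37 and 6.98 FPKM in replicate 2. What replicates of 1 number had in common was not tested.

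The median log2 fold change of the members was -0.241 to -0.0318 without single libraries, -0.241 being without sh-MFAP2 replicate 2, and the intronless minus spliced difference 0.12 to 0.33. Without HSPB1, an alternative chosen after the data were seen, that difference was 0.0593. HSPD1 turned to 0.0045 under median-of-ratios scaling. Without single libraries HSPA1A ran from -0.0042 to 0.15, HSPA1B from -0.0763 to 0.0798 and HSPE1 from -0.47 to 0.15. HSPA1A turned without sh-MFAP2 replicate 1 (-0.0042), HSPA1B without sh-MFAP2 replicate 1 (-0.05) or control replicate 1 (-0.0763), and HSPE1 without sh-MFAP2 replicate 1 (0.15). The other 6 members kept their direction in the 8 alternatives that could move a fold change; both filters, the replicate block and the variance model leave it as it is. The causes were not tested. Under quantile scaling and by summed transcripts HSPD1 also lay below both controls, and under median-of-ratios scaling HSPA1A above both.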

Other observations

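Among 7 immediate early stress genes tested, 2 (28.6%) were higher in both sh-MFAP2 libraries, EGR1 and FOS, and 2 (28.6%) lower in both, ATF3 and JUN, against 17.5% and 31.4% of all genes. None passed the adjusted threshold. EGR1 measured 30.4 and 29.7 FPKM under MFAP2 knockdown, against 18.8 and 18.4 FPKM in control cells, a log2 fold change of 0.67 (SE 0.0997, limma adjusted p = 0.246). FOS measured 9.93 and 10.0 FPKM against 6.79 and 7.46 FPKM (0.44, SE 0.106). ATF3 measured 1.01 and 0.908 FPKM against 1.30 and 1.82 FPKM (-0.38, SE 0.148), and JUN, a single-exon gene, 48.6 and 56.7 FPKM against 58.6 and 57.2 FPKM (-0.14). JUNB, also of 1 exon, was listed at 84.4 FPKM in control replicate 1 and at 0 in the other 3 libraries, and IER2 measured 28.1 FPKM in control replicate 2 and 0.466 to 0.715 FPKM elsewhere. These genes, with 1 (JUN and JUNB) to 5 (ATF3) annotated exons, were set beside the intronless HSPA1A and HSPA1B, with 4 close values each. JUN ran only from 48.6 to 58.6 FPKM, while JUNB and IER2 each had 1 library far from the rest.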
